A study of Mus musculus with 6 samples.

Results

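The genes described here are *Trp53*, which encodes the tumour suppressor p53, its relatives *Trp63* and *Trp73*, and 6 genes that p53 is known to switch on: *Cdkn1a*, *Mdm2*, *Ccng1*, *Sesn2*, *Eda2r* and *Phlda3*. They were chosen by name, and all 9 were found among the 54532 genes of the expression table. RNA was sequenced from whole ovaries of C57BL/6 mice at 16.5 days post-coitus (dpc), with 3 control (Ctrl) and 3 *Srsf1* conditional knockout (cKO) libraries. In cKO mice (*Stra8-GFPCre Srsf1* Fl/Fl), the Cre transgene is driven by *Stra8*, a gene that germ cells switch on as meiosis begins, and deletes exons of the splicing factor gene *Srsf1*. Somatic cells of the ovary therefore keep the floxed gene. The labels describe the Ctrl mice only as wild type, so it is not given whether they carried the floxed allele or the transgene. The tissue label is ovary, whereas the extraction text of the labels speaks of retinas. The study calls the libraries biological replicates, and the sources do not say whether ovaries were pooled.

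The protein p53 is a transcription factor that is kept scarce by MDM2, a ubiquitin ligase that marks it for destruction and that p53 itself induces. After DNA damage, kinases such as ATM, ATR and CHK2 modify p53, it escapes MDM2, and its targets halt the cell cycle, aid repair or start cell death. Oocytes in meiotic prophase carry programmed DNA breaks, and in this lineage the TAp63 form of p63, made once prophase is well advanced, is known as the guardian that eliminates damaged oocytes, with CHK2 upstream of it. Because p53 and its relatives are controlled largely as proteins, RNA levels of the targets are often read beside those of the factors themselves.

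Expression is given in FPKM, a measure of the reads on a gene relative to its length and to the size of the library. Comparisons of level between genes rest on the deposited length of each gene, which need not be that of the transcripts expressed. Values could be turned back into whole reads, and the libraries held 15548757 to 16756795 reads on genes in Ctrl and 14212164 to 16784241 in cKO. *Srsf1* was at 80.2, 70.1 and 63.1 FPKM in Ctrl 1 to 3 and at 32.4, 37.0 and 36.4 FPKM in cKO 1 to 3, so every cKO library lay below every Ctrl library. To compare the groups, limma was run two-sided on log2(FPKM + 1) for 17180 genes that averaged at least 0.5 FPKM over all libraries. An unadjusted p below 0.05, the limit the study used, called 460 genes higher and 301 lower in cKO, which is 2.68% and 1.75% of the genes tested and 4.43% in all, whereas no gene passed after Benjamini-Hochberg adjustment (smallest adjusted p = 0.392). The voom test on the recovered reads of all 6 libraries called 443 higher and 281 lower. Again none passed after adjustment (smallest adjusted p = 0.989 in voom). The balance differed between limma fits. Without Ctrl 1, limma called 243 higher and 382 lower, and 4 passed adjustment (smallest adjusted p = 0.00129). It called 548 higher and 628 lower without Ctrl 3, and 459 higher and 545 lower with the germ-cell level as a covariate. Germ-cell genes, including *Ddx4* and *Dazl*, were detected in all libraries, and their mean log2(FPKM + 1) over 10 markers was 3.57, 4.48 and 5.23 in Ctrl and 5.23, 4.15 and 5.38 in cKO. Ctrl 1 and cKO 2 were thus the libraries with the lowest mean germ-cell signal in their groups. Of the markers, *Dnd1* went the other way and was highest in these within each group, at 4.15 and 3.46 FPKM. *Dazl* was at 23.0, 39.1 and 80.0 FPKM in Ctrl and at 169, 56.8 and 219 FPKM in cKO. The study lists the markers *Dazl* and *Tex15* among genes with altered splicing in cKO, so the mean may not be free of genotype. In RNA of whole ovaries, fewer cells of a type and less RNA per cell cannot be told apart.

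None of the members passed the limit. Of the 9, 7 reached the minimum level and were tested, and 0 of 7 were called by limma, beside 4.43% of all genes, with 0 of 7 called by voom as well. Their log2 fold changes ran from -0.41 for *Cdkn1a* to 0.32 for *Phlda3*, with a median of -0.08 beside a median of -0.01 over all genes tested, and 5 were below 0 and 2 above. Their smallest adjusted p was 0.978, and over the 16 alternative fits it stayed between 0.322 and 1.0. With 3 libraries against 3, the exact permutation test of a single gene cannot go below p = 0.1.

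**Figure D1:**
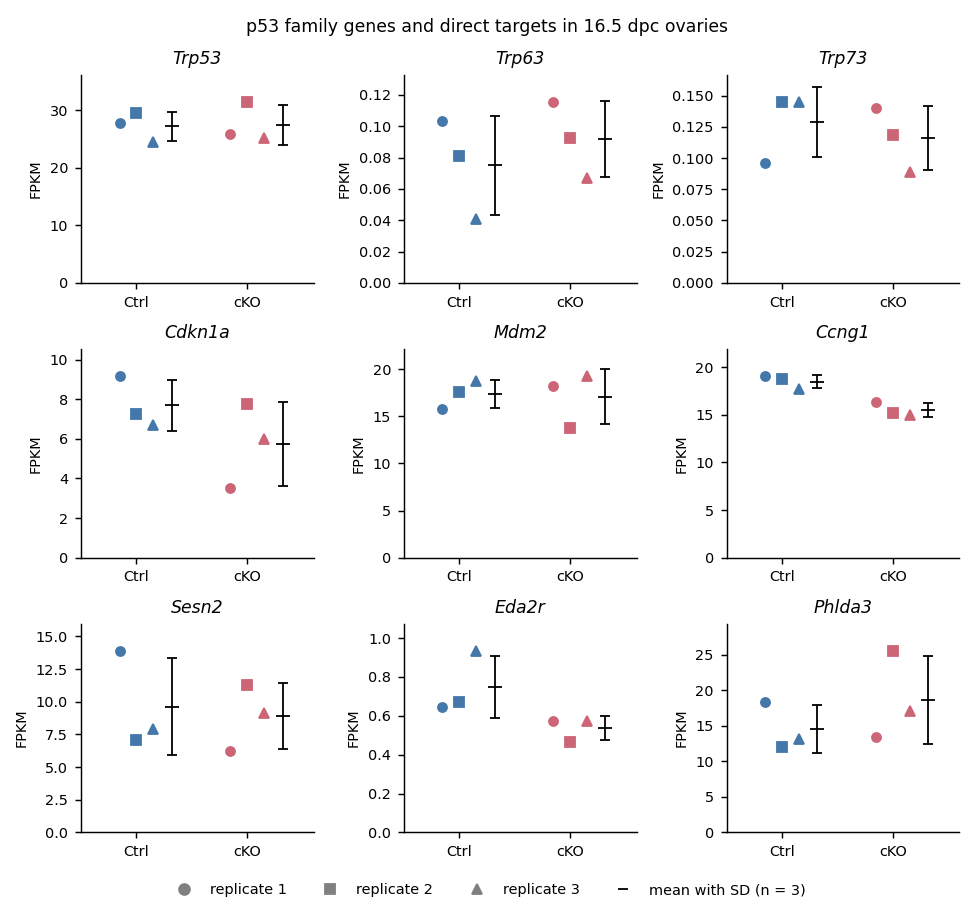
FPKM (y axes, from 0, with a scale for each gene) of the 9 genes in each of the 3 Ctrl and 3 cKO libraries, with points for libraries and bars for the mean and SD. Ctrl and cKO overlap for 7 genes, whereas for *Ccng1* and *Eda2r* all 3 cKO points lie below all 3 Ctrl points.

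*Trp53* (ENSMUSG00000059552; GRCm38 chromosome 11, 69580359 to 69591873, plus strand) was the most abundant member. It was at 27.8, 29.4 and 24.5 FPKM in Ctrl and at 25.8, 31.5 and 25.1 FPKM in cKO, with 1441 to 2135 reads per library. The groups overlapped almost completely, with cKO 2 the highest and Ctrl 3 the lowest library. Ctrl averaged 27.2 ± 2.52 and cKO 27.5 ± 3.48 FPKM (SD, n = 3 each). This gave a log2 fold change of 0.01 with an SE of 0.14 (limma adjusted p = 0.999), and its 95% interval ran from -0.31 to 0.33. Differences of up to about that size in either direction were therefore not resolved. A processed pseudogene, *Trp53-ps* on chromosome 17, shares sequence with *Trp53* and held between 9 and 44 reads per library, few beside those of *Trp53*.

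*Trp63* and *Trp73* were barely detected. *Trp63* (ENSMUSG00000022510; chromosome 16, 25683763 to 25892102, plus strand) had 13, 11 and 6 reads in Ctrl and 15, 13 and 8 reads in cKO, which corresponds to between 0.0409 and 0.116 FPKM. Pooled, these were 30 reads in Ctrl and 36 in cKO, a depth-corrected ratio of cKO to Ctrl of 1.26 with an exact 95% interval of 0.753 to 2.11 that covers counting error only. A difference between the groups was not detectable at this depth, and the value of a gene, summed over its 8 annotated transcripts, does not separate the TAp63 form of oocytes from the ΔNp63 form of stratified epithelium.

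Marker genes of later oocytes and of stratified epithelium were read beside *Trp63*. Of the later oocyte genes, *Figla*, a transcription factor of oocytes, had the highest mean at 8.45 FPKM, and *Zp2*, an egg coat gene, the lowest at 0.0035 FPKM. Their summed level over 12 markers was 8.45 to 26.6 FPKM in Ctrl and 11.0 to 16.1 FPKM in cKO. Of the stratified epithelium genes, *Ly6d* had the highest mean at 2.73 FPKM. The keratin genes *Krt5* and *Krt14* had means of 0.029 and 1.13 FPKM, and the desmosome gene *Dsg3* was listed at 0 in every library. The summed level over 8 markers was 3.16 to 6.99 FPKM in Ctrl and 3.29 to 9.28 FPKM in cKO.

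*Trp73* (ENSMUSG00000029026; chromosome 4, 154056253 to 154140208, minus strand), whose product p73 is best known in neurons and multiciliated cells, had 8, 13 and 14 reads in Ctrl and 12, 11 and 7 reads in cKO. Its level was between 0.0891 and 0.145 FPKM, and the groups overlapped. The depth-corrected ratio of pooled reads, 35 in Ctrl and 30 in cKO, was 0.898 (exact 95% interval 0.533 to 1.51, counting error only). Among 10 markers of multiciliated cells, the transcription factor gene *Rfx3* had the highest mean at 3.63 FPKM and the regulator *Gmnc* the lowest at 0.0074 FPKM. Their summed level was 10.5 to 12.0 FPKM in Ctrl and 7.11 to 11.3 FPKM in cKO. Of the 5 tested, 2 (*Rfx2* and *Dnaic1*) passed the unadjusted limit as lower in cKO, beside 1.75% of all genes. The median log2 fold change over the 5 was -0.33. *Rfx3* itself was at 2.08, 3.09 and 3.19 FPKM in Ctrl and at 5.26, 2.42 and 5.75 FPKM in cKO, with a higher mean in cKO. The part of these cells in the values of *Trp73* was not tested.

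*Mdm2* (ENSMUSG00000020184; chromosome 10, 117688875 to 117710758, minus strand), the negative regulator and target of p53, was the second most abundant member. It was at 15.8, 17.6 and 18.8 FPKM in Ctrl and at 18.2, 13.8 and 19.2 FPKM in cKO. Both the highest and the lowest library were cKO libraries, and the range of Ctrl lay inside that of cKO. On the log2 scale the difference was -0.03 with an SE of 0.15 (95% interval -0.40 to 0.34, limma adjusted p = 0.994). Its sign turned when Ctrl 3 or cKO 2 was left out, to 0.02 and 0.11. *Trp53* and *Mdm2* were ordered nearly oppositely across libraries (Pearson r = -0.86 on log2(FPKM + 1), the lowest among the 21 pairs of tested members), with cKO 2 highest for the former and lowest for the latter. This value is given as a description over 6 libraries that share depth and tissue makeup.

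Of the cell cycle targets, *Cdkn1a* and *Ccng1* carry a full p53 motif next to a start site, and these stretches are shown because their RNA is often taken as a readout of p53. Binding by p53 is described by a decamer half-site, the p53 half-site consensus, which is its own reverse complement so that a single search covers both strands. Windows of 300 bases, 250 before and 50 after each start, came from RefSeq (GRCm38.p6), and 8 of the 9 members had at least 1, with 10 windows in all. A perfect half-site was found in 4 windows, those of *Trp53*, *Mdm2*, *Ccng1* and the upstream start of *Cdkn1a*, whereas 8.36% of all 32851 windows held one. A pair of adjoining half-sites with at most 1 mismatch in 20 bases was found in 2 windows of members, those of *Cdkn1a* and *Ccng1*, and in 29 windows, or 0.0883%, of all. *Cdkn1a* and *Ccng1* are textbook p53 targets and were chosen as such, so these motifs were not an independent property of the members. The 250 bases before each start are printed 5′ to 3′ on the strand of the gene, with perfect half-sites and the whole of each paired site, its 1 mismatch included, in capitals.
Cdkn1a (GRCm38.p6, chr17:29090729-29090978, plus strand): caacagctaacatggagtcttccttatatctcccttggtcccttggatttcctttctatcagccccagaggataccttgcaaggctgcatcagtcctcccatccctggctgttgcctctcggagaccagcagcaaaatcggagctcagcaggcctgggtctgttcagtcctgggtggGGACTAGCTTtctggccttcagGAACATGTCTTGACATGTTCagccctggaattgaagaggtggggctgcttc
Ccng1 (GRCm38.p6, chr11:40755287-40755536, minus strand): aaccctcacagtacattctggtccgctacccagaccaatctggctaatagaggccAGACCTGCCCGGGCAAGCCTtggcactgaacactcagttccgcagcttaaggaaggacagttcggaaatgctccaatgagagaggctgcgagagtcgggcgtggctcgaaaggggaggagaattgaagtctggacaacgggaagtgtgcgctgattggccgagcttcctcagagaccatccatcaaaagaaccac
In *Cdkn1a* the paired site began 51 bases before this start and a further half-site began 73 bases before it. In *Ccng1* the paired site began 195 bases before the start. A match of letters is a description of the sequence and says nothing of whether p53 was bound in these ovaries.

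*Cdkn1a* (ENSMUSG00000023067; chromosome 17, 29090976 to 29100727, plus strand) encodes p21, the inhibitor of cyclin-dependent kinases through which p53 arrests the cell cycle. It was at 9.16, 7.25 and 6.69 FPKM in Ctrl and at 3.51, 7.75 and 6.01 FPKM in cKO, with 193 to 488 reads per library. The lowest value was that of cKO 1, while cKO 2 lay above 2 of the 3 Ctrl libraries. The means were 7.70 ± 1.30 (SD, n = 3) and 5.76 ± 2.13 (SD, n = 3). The log2 fold change of -0.41 had an SE of 0.26 and a 95% interval of -1.02 to 0.20 (limma adjusted p = 0.978), so neither equality nor a fall to about the lower bound could be told from these libraries. Without cKO 2 the log2 fold change was -0.62 and limma gave an unadjusted p of 0.0408, in a fit that called 2493 of all 17180 genes. The 16 alternatives together spanned -0.62 to -0.14.

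*Ccng1* (ENSMUSG00000020326; chromosome 11, 40748552 to 40755311, minus strand) encodes cyclin G1, which recruits a phosphatase to MDM2. It was at 19.0, 18.7 and 17.7 FPKM in Ctrl and at 16.4, 15.2 and 15.0 FPKM in cKO, with 750 to 1088 reads per library. Replicates lay close together, and all cKO libraries were below all Ctrl libraries. The means were 18.5 ± 0.687 (SD, n = 3) and 15.5 ± 0.755 (SD, n = 3), and the exact permutation test gave p = 0.1, the smallest it can give. In limma the log2 fold change was -0.24 with an SE of 0.10 (95% interval -0.49 to 0.01) with an unadjusted p of 0.0576 and an adjusted p of 0.978. This was the member nearest to the limit. It passed with no minimum FPKM (unadjusted p = 0.0308 in limma) and with quantile normalization (unadjusted p = 0.0491 in limma), and leaving out any 1 library kept its log2 fold change between -0.28 and -0.22.

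*Sesn2* (ENSMUSG00000028893; chromosome 4, 132492032 to 132510501, minus strand) encodes sestrin 2, a stress-induced inhibitor of mTORC1 signalling. It was at 13.9, 7.06 and 7.91 FPKM in Ctrl and at 6.25, 11.3 and 9.12 FPKM in cKO. The spread within Ctrl, where Ctrl 1 stood above the other two, exceeded the difference between the means of 9.61 ± 3.71 (SD, n = 3) and 8.89 ± 2.53 (SD, n = 3). This left a log2 fold change of -0.08 with an SE of 0.29 (95% interval -0.77 to 0.61, limma adjusted p = 0.991). Without Ctrl 1 it was 0.19 and without cKO 1 it was 0.13. The related target *Sesn1* was at 29.2 ± 2.96 FPKM in Ctrl and 29.3 ± 0.365 FPKM in cKO (SD, n = 3 each).

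*Phlda3* (ENSMUSG00000041801; chromosome 1, 135766119 to 135769136, plus strand) encodes a small membrane-binding protein that restrains AKT signalling. It was at 18.4, 12.0 and 13.1 FPKM in Ctrl and at 13.4, 25.5 and 17.0 FPKM in cKO. The value of cKO 2 was the highest of all, and the other two cKO libraries lay within the range of Ctrl. The log2 fold change of 0.32 had an SE of 0.26 and a 95% interval of -0.29 to 0.93 (limma adjusted p = 0.978). It was 0.08 without cKO 2, so the positive difference of the means rested largely on that library.

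*Eda2r* (ENSMUSG00000034457; chromosome X, 97333840 to 97377216, minus strand) encodes a receptor of the tumour necrosis factor receptor family that binds ectodysplasin A2. It was at 0.645, 0.671 and 0.933 FPKM in Ctrl and at 0.571, 0.465 and 0.574 FPKM in cKO. As for *Ccng1*, every cKO library lay below every Ctrl library, although at a much lower level. The log2 fold change of -0.18 (SE 0.15, 95% interval -0.55 to 0.18, limma adjusted p = 0.978) understates the difference of so low a gene, because 1 is added to each value. With a pseudocount of 0.1 it was -0.41 and in voom -0.48. In reads, 57, 64 and 96 in Ctrl stood against 52, 46 and 48 in cKO, and the depth-corrected ratio of the pooled reads was 0.705 (exact 95% interval 0.568 to 0.874, counting error only). That interval leaves out the spread between libraries, which the limma test takes into account.

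Groups that do not overlap, lower in cKO, were thus seen for 2 of the 7 tested members. Over all genes tested, 4.10% had groups that do not overlap in that direction and 8.68% in either direction.

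**Figure D2:**
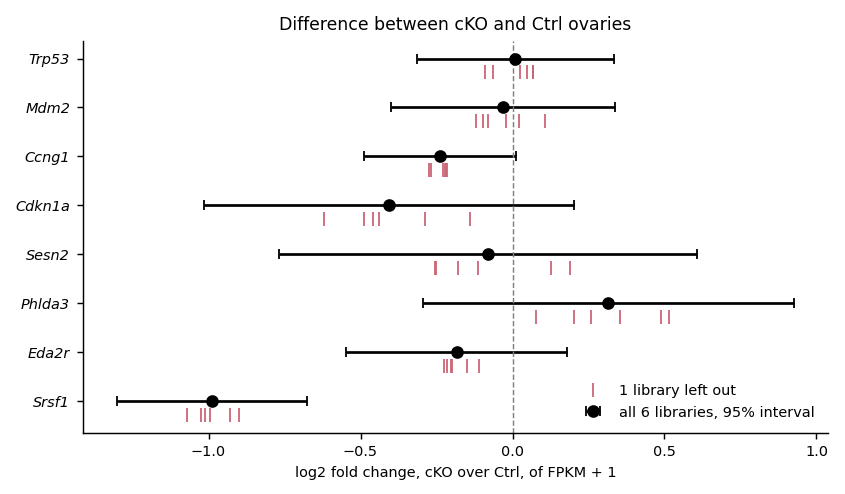
log2 fold change of cKO over Ctrl on the FPKM + 1 scale (x axis) for the 7 tested members and *Srsf1*, with points and bars for all 6 libraries and their 95% interval, and short red lines for each fit without 1 library. The intervals of all 7 members include 0, and that of *Srsf1* lies wholly below it.

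Ordered by mean FPKM over the 6 libraries, the members ran from *Trp53* (27.3) through *Mdm2* (17.2), *Ccng1* (17.0), *Phlda3* (16.6), *Sesn2* (9.25) and *Cdkn1a* (6.73) to *Eda2r* (0.643), *Trp73* (0.122) and *Trp63* (0.0834). Between neighbours in this order, the ranges over libraries were apart only for *Trp53* and *Mdm2*, for *Cdkn1a* and *Eda2r* and for *Eda2r* and *Trp73*. *Mdm2* exceeded *Ccng1* in 3 of 6 libraries and *Ccng1* exceeded *Phlda3* in 4 of 6, so their order was not resolved. *Phlda3* exceeded *Sesn2* in 6 of 6 libraries and *Sesn2* exceeded *Cdkn1a* in 5 of 6, although the ranges overlapped.

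In several members, Ctrl 1 and cKO 2 held the extremes of their groups. This pattern was picked after the values of the members were seen, so its counts are given as a description. *Cdkn1a*, *Sesn2* and *Phlda3* were each highest in Ctrl 1 among Ctrl and in cKO 2 among cKO, and *Mdm2* and *Eda2r* were each lowest in these. The first pattern held for 3 of 7 members and 19.6% of all genes tested, the second for 2 of 7 and 19.7%. These were also the libraries with the lowest germ-cell signal within their groups. The part of the germ-cell level in the values of the members was tested only by adding it as a covariate, a fit chosen after the data were seen. The germ-cell markers themselves had a median log2 fold change of 0.41, beside -0.01 over all genes tested. Germ-cell level and genotype were therefore not cleanly separated in this fit. In that limma fit *Phlda3* had a log2 fold change of 0.52 with an unadjusted p of 0.0328 (adjusted p = 0.84), *Sesn2* turned to 0.14, *Cdkn1a* was at -0.24, *Mdm2* at -0.15 and *Ccng1* at -0.23. Over the 16 alternatives the adjusted p of *Phlda3* lay between 0.84 and 1.0.

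**Figure D3:**
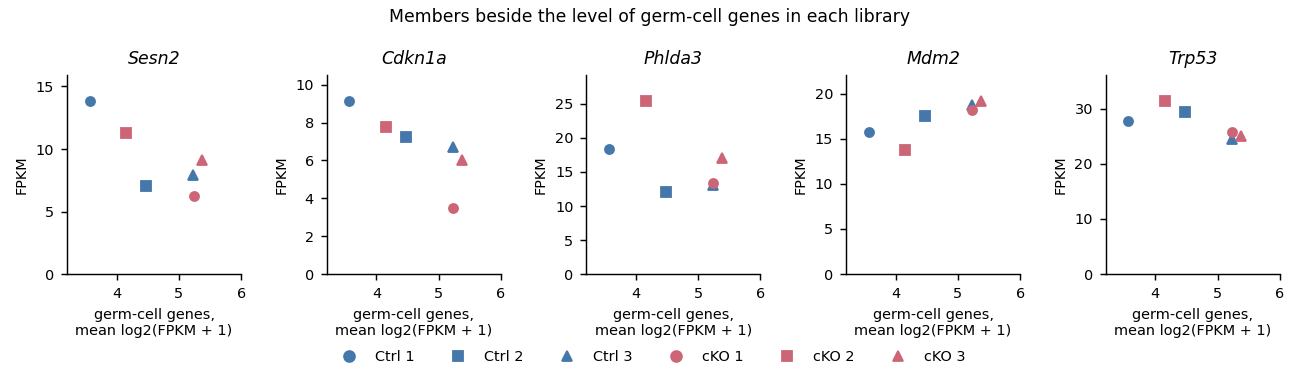
FPKM of 5 members (y axes, from 0) against the mean log2(FPKM + 1) of 10 germ-cell genes (x axes) in each library, with colour for the group and shape for the replicate. Ctrl 1 and cKO 2, at 3.57 and 4.15, lie farthest to the left and are the highest points of their groups for *Sesn2*, *Cdkn1a* and *Phlda3* and the lowest for *Mdm2*.

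Other cell types of the ovary were checked with marker lists in the same way. Summed over each list, pregranulosa genes were at 518 to 632 FPKM in Ctrl and 490 to 723 FPKM in cKO, with *Amhr2* the highest. Stroma genes were at 624 to 779 and 609 to 687 FPKM, and endothelial genes at 61.5 to 75.2 and 60.5 to 71.2 FPKM. Red blood cell genes varied most, from 4901 to 23322 FPKM in Ctrl, with Ctrl 1 the highest, and from 1722 to 10478 FPKM in cKO, with cKO 1 the lowest. Ctrl 1 was likewise the highest library for *Cdkn1a* and *Sesn2*, and cKO 1 the lowest. The red blood cell sum was mostly the globin genes *Hba-a1* and *Hbb-bs*, with means of 4104 and 3932 FPKM. Other globin genes of the list went the other way, as *Hba-x* and *Hbb-y* were highest in cKO 1, at 19.1 and 99.6 FPKM. In Ctrl 1 these were at 2.91 and 9.59 FPKM. Immune cell genes were at 55.1 to 86.2 FPKM in Ctrl and 37.9 to 66.4 FPKM in cKO, mesonephros genes at 40.6 to 49.2 and 37.1 to 57.8 FPKM, and genes of steroid-producing cells at 33.2 to 70.4 and 31.4 to 73.6 FPKM. The last 2 sums were mostly single genes, *Emx2* and *Hsd3b1*, with means of 42.7 and 40.0 FPKM. The lowest markers, *Wnt9b* and *Cyp11b1*, had means of 0.065 and 0.025 FPKM. Only 3 of 6 mesonephros markers and 4 of 7 steroid markers reached the minimum for a test. The part of any of these cell types in the values of the members was not tested.

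Of 40 genes listed as regulators and cofactors of p53, all were tested and 2 passed the limit, which is 5.0% beside 4.43% of all genes. Their median log2 fold change was 0.03, with 22 above and 18 below 0, and none passed after adjustment (smallest adjusted p = 0.978 in limma). *Cdkn2a* (chromosome 4, 89274471 to 89294653) was higher in cKO. The locus encodes the cell cycle inhibitor p16INK4a and, from another reading frame, p19ARF, which blocks MDM2. It was at 3.24, 2.42 and 5.18 FPKM in Ctrl and at 10.8, 9.25 and 16.0 FPKM in cKO, a clear separation with means of 3.61 ± 1.41 and 12.0 ± 3.52 (SD, n = 3 each). Its log2 fold change was 1.51 with an SE of 0.27 (unadjusted p = 0.000986 and adjusted p = 0.978 in limma), and it passed the unadjusted limit in all 16 alternatives, with values from 1.30 to 1.74 and adjusted p from 0.187 to 1.0. The value sums both reading frames, so which of them was higher is not shown.

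*Chek2* (chromosome 5, 110839979 to 110874145), the kinase CHK2 upstream of p53 and TAp63, was lower in cKO. It was at 12.5, 8.64 and 6.22 FPKM in Ctrl and at 5.34, 5.04 and 4.79 FPKM in cKO, with wide spread in Ctrl, tight values in cKO and no overlap. Its log2 fold change was -0.70 with an SE of 0.23 (unadjusted p = 0.0192 and adjusted p = 0.978 in limma). Without cKO 3 it was -0.66 and missed the limit (unadjusted p = 0.0541 in limma), and over the fits without 1 library it ran from -0.92 without Ctrl 3 to -0.46 without Ctrl 1. The 3 regulators of the highest level were *Rpl5* and *Rpl11*, ribosomal proteins that can bind MDM2, and *Trim28*, a corepressor that works with MDM2. Their log2 fold changes of -0.01, -0.24 and 0.12 did not pass, and ribosomal protein genes have many processed copies that can take or lend reads. The number of regulators past the limit was 7 without cKO 2 and 1 without cKO 3. Of all 17180 genes tested, 2493 passed without cKO 2 and 424 without cKO 3.

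**Figure D4:**
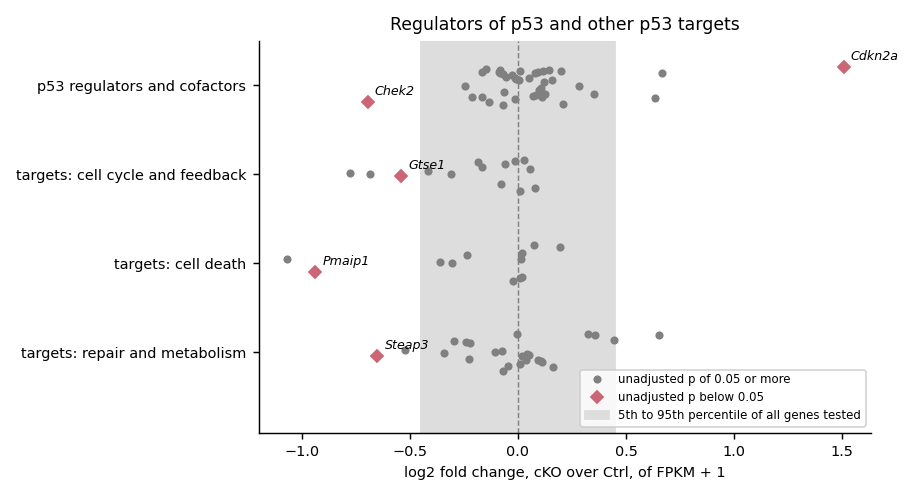
log2 fold change of cKO over Ctrl on the FPKM + 1 scale (x axis) of the tested p53 regulators and of 3 lists of other p53 targets (rows), with red diamonds for an unadjusted p below 0.05 in limma and a grey band for the 5th to 95th percentile of all genes tested. Most genes lie within the band, from -0.45 to 0.45, and *Cdkn2a* lies farthest to the right.

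Of 55 further p53 targets, 51 were tested, and 3 passed, or 5.88% beside 4.43% of all genes. All 3 were lower in cKO, a direction in which 1.75% of all genes passed, and none passed after adjustment. In voom and with a replicate block, the 3 called were *Ddb2*, higher in cKO, and *Gtse1* and *Steap3*, lower. Without Ctrl 3, 2 of 8 called were higher, and without cKO 2, 3 of 9. In the remaining fits none was called higher. In the main fit *Ddb2* had a log2 fold change of 0.65 (unadjusted p = 0.0565 in limma). The median log2 fold change of the 51 was -0.02, with 23 above and 28 below 0. The targets in the cell cycle and in feedback on p53 were 14, with 10 below 0, a median of -0.12 and 1 called lower. The cell death targets were 12, with 6 above and 6 below 0 and 1 called lower. The targets in repair and metabolism were 29, of which 25 were tested, with a median of 0.01 and 1 called lower, while genes such as *Spata18* and *Trp53cor1* lay below the minimum and *Sco2* was listed at 0. The count over all 3 lists depended on single libraries, at 0 without Ctrl 2, 1 without cKO 3, 8 without Ctrl 3 and 9 without cKO 2. The counts over all 17180 genes moved as well, at 364, 424, 1176 and 2493 in these fits.

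*Gtse1*, whose product moves p53 out of the nucleus in the G2 phase, was at 12.8, 13.1 and 11.8 FPKM in Ctrl and at 10.9, 6.24 and 8.37 FPKM in cKO. The groups did not overlap, and the log2 fold change was -0.54 with an SE of 0.19 (unadjusted p = 0.0259, adjusted p = 0.978 in limma). It missed the limit without Ctrl 1, Ctrl 2 or cKO 3, and ran from -0.72 without cKO 1 to -0.36 without cKO 2. *Steap3*, a ferrireductase of iron uptake, was at 12.2, 11.4 and 7.03 FPKM in Ctrl and at 5.69, 6.24 and 5.99 FPKM in cKO, again without overlap. Its log2 fold change was -0.65 with an SE of 0.20 (unadjusted p = 0.0151, adjusted p = 0.978 in limma), and it missed the limit without Ctrl 1 or Ctrl 2. *Pmaip1*, which encodes the pro-apoptotic protein NOXA, was at 0.353, 2.19 and 2.75 FPKM in Ctrl and at 0.538, 0.0901 and 0.373 FPKM in cKO. Here Ctrl 1 lay with the cKO libraries, so the groups overlapped, and the smallest library value was 4 reads. The log2 fold change of -0.94 with an SE of 0.39 (unadjusted p = 0.0487, adjusted p = 0.978 in limma) passed in 5 of 16 alternatives. Among these 5, it was -1.39 without Ctrl 1 (unadjusted p = 0.000713 in limma) and -1.28 with the germ-cell covariate (unadjusted p = 0.00213 in limma). The adjusted p in limma was 0.591 and 0.603. The size of the fold change depended on the added 1, at -1.90 with a pseudocount of 0.1 and -2.31 in voom, neither past the limit.

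**Figure D5:**
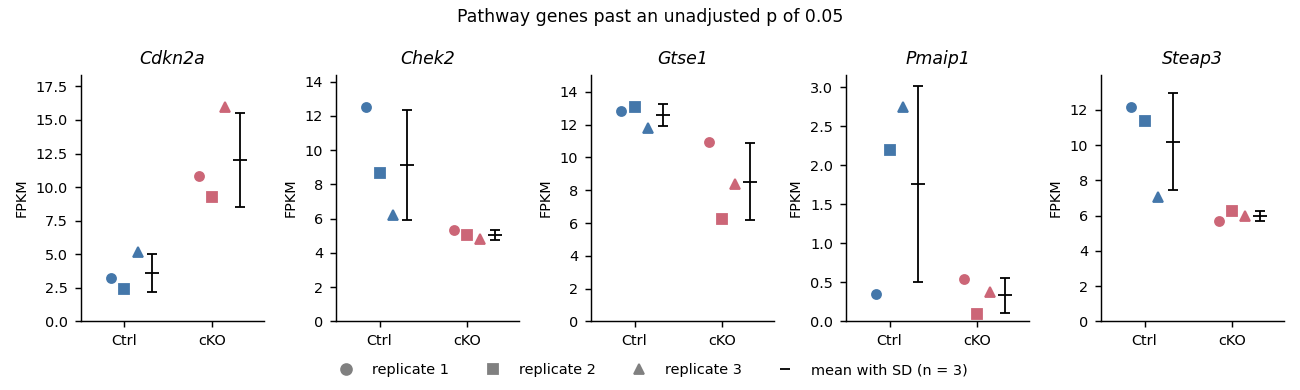
FPKM (y axes, from 0) of the 5 regulators and targets past an unadjusted p of 0.05, with points for the 3 Ctrl and 3 cKO libraries and bars for the mean and SD. The groups are apart for *Cdkn2a*, *Chek2*, *Gtse1* and *Steap3*, whereas for *Pmaip1* the Ctrl 1 point lies among the cKO points.

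The most abundant targets of each list gave no call with all 6 libraries. *Btg2*, an antiproliferative gene, ranged from 14.5 to 44.1 FPKM in Ctrl and from 8.89 to 17.9 FPKM in cKO, with a log2 fold change of -0.78 (SE 0.43, adjusted p = 0.978 in limma). It was -0.38 without Ctrl 1, and -1.15 without Ctrl 3, where it passed (unadjusted p = 0.0236 in limma) among 1176 genes called. Its Ctrl 1 value was the highest, as was that of the peroxidase gene *Gpx1*, which was at 760, 321 and 169 FPKM in Ctrl and at 131 to 415 FPKM in cKO, so the groups overlapped. The kinase gene *Plk2* had a log2 fold change of 0.05. *Siva1*, a cell death gene, was at 24.7 to 27.1 FPKM in Ctrl and 29.1 to 29.9 FPKM in cKO without overlap, with a log2 fold change of 0.20 (unadjusted p = 0.0965 in limma). *Bax*, the effector of mitochondrial apoptosis, was at 22.6, 21.7 and 21.2 FPKM in Ctrl and at 16.9, 23.4 and 15.7 FPKM in cKO, so that cKO 2 stood apart from the other two. Its log2 fold change of -0.23 did not pass, and without cKO 2 it was -0.40 with an unadjusted p of 0.0073 in limma. The fit without cKO 2 called 2493 of all 17180 genes, beside 761 with all libraries. *Ei24* and *Ddit4* were at 0.02 and -0.07 on the log2 scale. *Rps27l* was at 0.33, and at 0.48 without cKO 2 (unadjusted p = 0.00494 in limma), with the reserve that it shares sequence with other ribosomal protein genes.

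For each tested member, the 2 protein-coding genes whose log2(FPKM + 1) followed it most closely over the 6 libraries were taken from 13482 genes. These 14 genes had Pearson correlations from 0.980 to 0.996, and were picked as the highest of many over few libraries, so they are given with no test. *Trp53* was followed by *Rps3* and *Slc16a5*, *Mdm2* by *Sprtn* and *Tmem69*, and *Cdkn1a* by *Smoc1* and *Pxylp1*. The nearest genes of *Ccng1* were *Bean1* and *Cep135*, those of *Sesn2* were *Mfsd13a* and *Dyrk2*, those of *Eda2r* were *Gm11985* and *Ccdc59*, and those of *Phlda3* were *Nap1l2* and *Wdr82*. No member was among the nearest genes of another. Between members, the highest correlation was 0.775, both for *Sesn2* with *Cdkn1a* and for *Sesn2* with *Phlda3*.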

How the data were processed

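RNA-seq of whole ovaries at 16.5 dpc was analysed in 3 Ctrl and 3 cKO libraries, grouped by genotype label. The authors aligned paired-end reads with HISAT2 2.0.5 to mm10 (GRCm38), counted them with featureCounts and deposited FPKM values per gene. The sources used here give neither the annotation release nor the use of strand, so genes overlapping on opposite strands, such as *Cdkn1a* and *Trp73*, are uncertain. Reads were recovered from FPKM and gene length, and all values were whole within 0.05 of a read. Counting error is large for genes with a few reads, such as *Trp63* and *Trp73*.

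limma 3.58.1 in R 4.3.3 was fitted to log2(FPKM + 1) over all genes with a mean of at least 0.5 FPKM, with an intensity trend. The limma p-values set the difference between the groups against the spread between these libraries, which limma moderates over all genes. The fit was tried on simulated reads with known changes and the same dispersion for every gene. The simulation held no differences in tissue makeup between libraries, so it does not speak to calls that depend on single libraries. Python 3.11.15, scipy 1.17.1, numpy 2.4.6, pandas 2.3.3 and matplotlib 3.10.9 were used. The members and lists were chosen with earlier results of these data known. Named were all members, *Srsf1*, list genes past the limit, the 3 most abundant genes per list, the highest and lowest markers or those at 0, and the 2 genes nearest to each member. *Sesn1* is also given, and so are *Krt5*, *Krt14*, *Ddb2*, *Hbb-bs*, *Hba-x*, *Hbb-y*, *Dnd1* and *Tex15*, which were chosen after their values were seen. Same-numbered libraries did not deviate together, so the main fit has no block. Alternatives were pseudocounts of 0.1 and 0.5, no minimum or a minimum of 1 FPKM, median-ratio scaling, quantile normalization, voom, no trend, a replicate block and each library left out. The fit with germ-cell level was added after seeing the data.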

Additional observations from a re-analysis of the deposited data

How the results depend on the processing

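With 1 library left out, log2 fold changes spanned -0.089 to 0.069 for *Trp53*, -0.12 to 0.11 for *Mdm2*, -0.25 to 0.19 for *Sesn2*, -0.62 to -0.14 for *Cdkn1a*, -0.28 to -0.22 for *Ccng1*, 0.08 to 0.52 for *Phlda3* and -0.23 to -0.11 for *Eda2r*, which was at -0.41 with a pseudocount of 0.1 and -0.48 in voom. *Cdkn1a* passed the unadjusted limit without cKO 2 alone. The number of members past it was then 0 to 1, that of regulators 1 to 7 and that of other targets 0 to 9. With quantile normalization *Trp53* was at -0.001, *Rpl5* at 0.048, *Sesn1* at -0.00 and *Ei24* at -0.002, and 1 member, *Ccng1* at -0.25, passed. With no minimum FPKM 1 member, *Ccng1* at -0.24, passed, and 1331 of 33797 genes did. With the germ-cell level as a covariate, 1 member, *Phlda3* at 0.52, passed, and *Sesn2* was at 0.14, *Rpl5* at 0.019 and *Ddit4* at 0.18. Among the list genes named, ranges that crossed 0 with 1 library left out were -0.055 to 0.062 for *Rpl5*, -0.49 to 0.036 for *Rpl11*, -0.061 to 0.08 for *Sesn1*, -0.043 to 0.13 for *Plk2*, -0.12 to 0.12 for *Ei24*, -1.04 to 0.044 for *Gpx1* and -0.43 to 0.23 for *Ddit4*. The replicate number as a block called 681 genes in place of 761 and 0 members, and the correlations of same-numbered libraries, -0.39, -0.03 and 0.12, did not pair them. The block ended the call of *Pmaip1* (unadjusted p = 0.065 in limma), called *Ddb2* as higher and changed no other call among the genes named. Over all genes, 364 were called without Ctrl 2 and 2493 without cKO 2. In all, 389 values kept their direction and their side of the limit or moved little, and 24 turned in direction. A further 17 no longer passed the limit, 7 newly passed it, and 10 counts moved more. The cause of these differences was not tested. With 6 to 15 reads per library, *Trp63* and *Trp73* allowed no comparison finer than their counting intervals.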
